A study of Mus musculus with 24 samples.

Results

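Collagen IV is the sheet-forming collagen of basement membranes, and nidogens, perlecan and agrin are the proteins that tie its network to laminin and to the cell surface. Their messenger RNAs were followed in dispersed mouse pancreatic islet cells as a set of 10 genes, made up of the 6 collagen IV chains (Col4a1 to Col4a6), the nidogens Nid1 and Nid2, perlecan (Hspg2) and agrin (Agrn). The genes were selected by symbol from the 41549 genes of the deposited table, with their lower levels in Ctr cells after palmitate already known, so that comparison is given below as a description. The other comparisons carry tests, though the genes were not chosen independently of these data. A matrix gene list was also known to be lower in αGlu than in Ctr cells under palmitate. All mice were wild type, of either sex, and 12 to 14 weeks old. The cells received 50 pmol of an antisense oligonucleotide, either a control (Ctr) or αGlu, a locked nucleic acid inhibitor of the tRNA fragment 5'tRF-Glu(CTC). They were then kept for 48 h in medium with 1% serum and either 0.75% bovine serum albumin alone (BSA) or 0.5 mM palmitate bound to albumin (PA), a saturated fatty acid used to imitate lipid overload.

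The 4 groups are named Ctr or αGlu and BSA or PA, and each has 6 libraries, of which 3 are labelled batch 1 and 3 batch 2. What distinguishes the batches is not stated. The libraries held 18214719 to 35001979 counts on exons. Within its own group and batch, every library correlated with the others at a mean Pearson r of 0.968 to 0.988 (log2 CPM over 15916 genes). The summed level of 10 beta-cell marker genes was 84084 to 152138 CPM (counts scaled to library size) in all libraries, which fits the label of islet cells, and markers of endothelial, pericyte, Schwann, macrophage, acinar and ductal cells were also read in these unsorted cells. As the samples are bulk, fewer cells of a type and less RNA per cell cannot be told apart in any value that follows.

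In the islet, a basement membrane surrounds the capillaries, and beta-cells touch it through integrins and dystroglycan. The Col4a1 and Col4a2 chains make the trimer found in nearly all basement membranes, Col4a3, Col4a4 and Col4a5 make a second trimer known from kidney and lung, and Col4a5 and Col4a6 make a further one known from smooth muscle and skin. Nidogens bridge laminin and collagen IV, perlecan is a large heparan sulfate proteoglycan bound to both networks, and agrin is a heparan sulfate proteoglycan that binds dystroglycan and Lrp4.

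The chain genes lie in head-to-head pairs in the mouse genome (GRCm38, GENCODE M21). Col4a1 (chr8:11198423-11312826, minus strand) and Col4a2 (chr8:11312805-11449287, plus strand) overlap by 22 bases at their starts. Col4a4 (chr1:82448423-82586849, minus strand) and Col4a3 (chr1:82586921-82722059, plus strand) are 71 bases apart, and Col4a6 (chrX:141165403-141474076, minus strand) and Col4a5 (chrX:141475385-141689234, plus strand) are 1308 bases apart. The linkers are single genes, with Nid1 at chr13:13437551-13512269, Nid2 at chr14:19751265-19811787 and Hspg2 at chr4:137468769-137570630 on the plus strand and Agrn at chr4:156165290-156197488 on the minus strand. The stretches outside any annotated exon from which a pair is read are shown to describe the pairs. The single genes as well as the paired ones were lower under PA in the values below, and a part of these stretches in that was not tested. The stretches are from RefSeq promoter windows of GRCm38, 5′ to 3′ on the strand named, with the motifs CCAAT and GGGCGG, read on either strand, in capitals.
Col4a4 to Col4a3, whole stretch between the starts, chr1:82586850-82586920, minus strand: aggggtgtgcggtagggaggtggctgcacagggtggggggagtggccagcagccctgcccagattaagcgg
Col4a6, upstream of its start, chrX:141474077-141474326, minus strand: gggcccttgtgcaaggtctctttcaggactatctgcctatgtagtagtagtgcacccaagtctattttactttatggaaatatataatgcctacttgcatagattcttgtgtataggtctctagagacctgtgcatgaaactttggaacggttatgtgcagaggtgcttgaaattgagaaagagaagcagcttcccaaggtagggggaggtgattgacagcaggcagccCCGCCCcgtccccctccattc
Col4a5, upstream of its start, chrX:141475169-141475384, plus strand: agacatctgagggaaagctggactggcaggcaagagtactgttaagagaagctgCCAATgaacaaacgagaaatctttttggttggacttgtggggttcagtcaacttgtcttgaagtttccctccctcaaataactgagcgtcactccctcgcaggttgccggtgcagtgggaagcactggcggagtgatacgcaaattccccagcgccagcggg

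Promoter windows, from 250 bases before to 50 bases after the start, were found for 8 of the 10 genes. CCAAT, the letters bound by NF-Y, was present on either strand in the windows of Col4a1, Col4a2, Col4a5 and Nid1, against 37.4% of all 32851 windows. GGGCGG, the core of the GC box bound by Sp1, was present in every one of these windows but that of Col4a4, against 35.7% of all windows, with 12 matches in the window of the outermost Agrn start. TATAAA was in none of them, against 13.6% of all windows. The stretch between Col4a4 and Col4a3 held none of these motifs and had a GC content of 69%, whereas the stretches upstream of Col4a6 and Col4a5 had 47.6% and 52.3%.

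Per length of transcript, Col4a1 and Col4a2 were the highest of the set and Col4a6 the lowest in every group. In Ctr BSA cells, Col4a1 had a median of 60.3 TPM (55.5 to 77.1 over 6 libraries) and Col4a2 had 42.9 TPM (35.7 to 50.8), and these ranges did not overlap. Hspg2 (median 20.9 TPM), Nid1 (15.1 TPM) and Agrn (12.4 TPM) followed, with neighbours in this order overlapping in range. Below a gap to Agrn came Col4a5 (5.15 TPM), Col4a3 (3.46 TPM), Col4a4 (1.62 TPM) and Nid2 (1.499 TPM), again each overlapping with its neighbour. Col4a6 was at 0.343 TPM (0.135 to 0.680) and did not reach the range of Nid2. The rarer chains thus have few reads behind them, with 8 to 46 counts per library for Col4a6 in Ctr BSA.

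In αGlu PA cells Col4a1 was at a median of 16.1 TPM and Col4a2 at 8.66 TPM, followed by Agrn at 8.07 TPM, ahead of Hspg2 at 3.11 TPM and Nid1 at 2.17 TPM. In Ctr PA cells Agrn again followed Col4a2, at a median of 11.95 TPM, and Hspg2 came after Nid1, at 5.11 TPM. Nid2 (0.569 TPM) was above Col4a3 (0.238 TPM) and Col4a4 (0.162 TPM) there. All these neighbours overlapped in range, so their order under PA is not separated beyond the spread between libraries.

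All 10 genes were lower in αGlu PA than in αGlu BSA cells past an edgeR adjusted p of 0.05, where 14.2% of the 15916 genes tested were lower, and in 7 of the 10 the groups did not overlap, against 3.95% of all genes. Among the 10, Col4a6 passed the filter on low counts only through its BSA libraries and so had to differ. With a stricter filter, which leaves Col4a6 out, 9 genes were called. The median change of the 10 genes was -2.04 on the log2 scale, beside 0.01 over all genes tested. The Ctr palmitate result by which the genes were known does not use the αGlu libraries. A matrix gene list was, however, known to be lower in αGlu PA than in Ctr PA cells, which involves these libraries. By the study's methods the groups of a replicate came from the same animals, so the αGlu and Ctr responses to PA are not independent of each other. Values below are CPM after TMM scaling (lowest, median and highest library), followed by the log2 fold change with its standard error.

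Col4a1 was read at 117, 159 and 196 CPM in αGlu BSA and at 42.1, 43.2 and 71.4 CPM in αGlu PA, a change of -1.64 ± 0.18 (SE; edgeR adjusted p = 5.15e-07). Its partner Col4a2 stood at 67.6, 97.5 and 124 CPM without PA and at 17.4, 20.5 and 50.2 CPM with it, a change of -1.84 ± 0.24 (adjusted p = 4.45e-06). Every PA library was below every BSA library for both genes. The ratio of Col4a2 to Col4a1 in TPM had a median of 0.664 in αGlu BSA cells and 0.547 with PA, with overlapping ranges.

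The second pair fell furthest. Col4a3 went from 6.30, 14.7 and 18.4 CPM to 0.802, 1.35 and 1.74 CPM, a change of -3.40 ± 0.29 (adjusted p = 8.90e-09), so that its mean under PA was 9.40% of that under BSA. Col4a4 went from 2.89, 6.76 and 12.6 CPM to 0.287, 0.745 and 0.926 CPM, a change of -3.30 ± 0.42 (adjusted p = 2.41e-06). The highest PA library of each gene was below its lowest BSA library. The 95% intervals of Col4a3 (-4.00 to -2.81) and of Col4a1 (-2.02 to -1.26) did not overlap; the difference between genes itself was not tested.

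On the X chromosome, Col4a5 fell from 7.87, 14.4 and 18.7 CPM to 1.77, 3.66 and 6.41 CPM, by 1.89 ± 0.23 on the log2 scale (adjusted p = 1.28e-06), with no overlap of the groups. Col4a6 was read at 0.298, 1.38 and 1.59 CPM under BSA and at 0.0382, 0.193 and 0.550 CPM under PA, a change of -2.25 ± 0.57 (adjusted p = 0.00447), and the groups overlapped. It passed the filter on low counts only through its BSA libraries and so had to differ, and its call was lost in each batch alone (adjusted p = 0.0856 in batch 1 and 0.116 in batch 2).

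Among the linkers, Nid1 fell from 20.6, 33.7 and 44.2 CPM to 4.12, 5.34 and 12.97 CPM (-2.19 ± 0.36, adjusted p = 6.81e-05), with no overlap. Nid2, which is rarer, was at 0.767, 2.33 and 3.75 CPM under BSA and at 0.242, 0.525 and 2.08 CPM under PA (-1.63 ± 0.40, adjusted p = 0.00349). Its groups overlapped, since a BSA library (S10) was within the PA range, and the call was lost in batch 1 alone (-1.11, adjusted p = 0.323). Perlecan (Hspg2) went from 63.2, 121 and 150 CPM to 9.58, 16.9 and 36.9 CPM, with no overlap (-2.44 ± 0.29, adjusted p = 9.52e-07). Agrn changed least, from 29.4, 53.6 and 91.3 CPM to 12.3, 26.3 and 61.2 CPM (-1.06 ± 0.21, adjusted p = 5.49e-04). Its groups overlapped, and its call was lost without the batch term (adjusted p = 0.107) and in batch 1 alone (adjusted p = 0.0919).

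**Figure D1:**
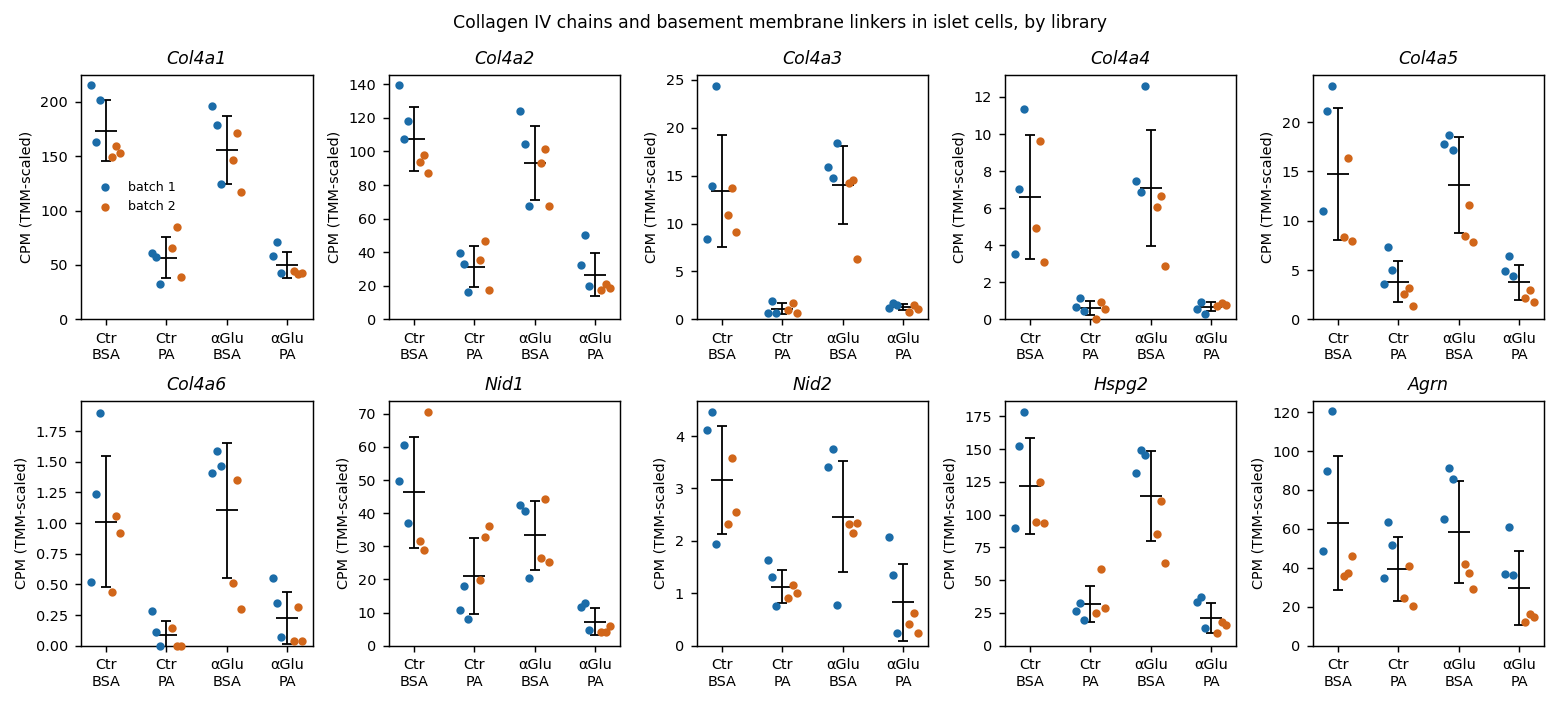
CPM after TMM scaling (vertical axis, linear from 0) of each of the 10 genes in the 24 libraries, by group, with blue points for batch 1, orange points for batch 2, and bars for the mean ± SD of 6 libraries. Both PA groups sit below both BSA groups in mean for every gene, with the Col4a3 PA libraries at 0.644 to 1.93 CPM and its BSA libraries at 6.30 to 24.4 CPM.

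The same genes in Ctr cells are given as a description, since their lower levels there were known when they were chosen. All 10 were past the adjusted threshold in the lower direction, where 14.5% of all genes were, and in 8 of the 10 the groups did not overlap, against 2.86% of all genes. Mean levels under PA were 8.32% of those under BSA for Col4a3, 9.60% for Col4a4 and 8.81% for Col4a6. They were 32.6% for Col4a1, 29.2% for Col4a2 and 25.9% for Col4a5. Among the linkers they were 45.2% for Nid1, 35.7% for Nid2, 25.98% for Hspg2 and 62.5% for Agrn, and Nid1 and Agrn were the genes whose groups overlapped. Col4a6 had 0 counts in 3 of the 6 Ctr PA libraries (S11, S19 and S23). It is among the 8 without overlap, but it passed the filter on low counts only through its BSA libraries and so had to differ. With the stricter filter, which leaves Col4a6 out, 9 genes were called. Past the threshold were neither Nid1 in batch 2 alone (-0.57, adjusted p = 0.285) nor Nid2 in batch 1 alone (-1.51, adjusted p = 0.161), and Agrn was not in 10 of 34 alternatives. Pericyte, stellate and fibroblast markers were lower past the threshold in Ctr PA cells for 10 of 11 (median -2.70), macrophage markers for 7 of 9 (-2.20), acinar markers for 5 of 7 and ductal markers for 2 of 6. Of the endothelial markers 1 of 11 was lower, of the Schwann and glia markers 0 of 9 and of the alpha, delta and PP markers 2 of 8, while 3 beta-cell markers fell and 3 rose of 10. The part of these cells in the Ctr values was not tested.

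**Figure D2:**
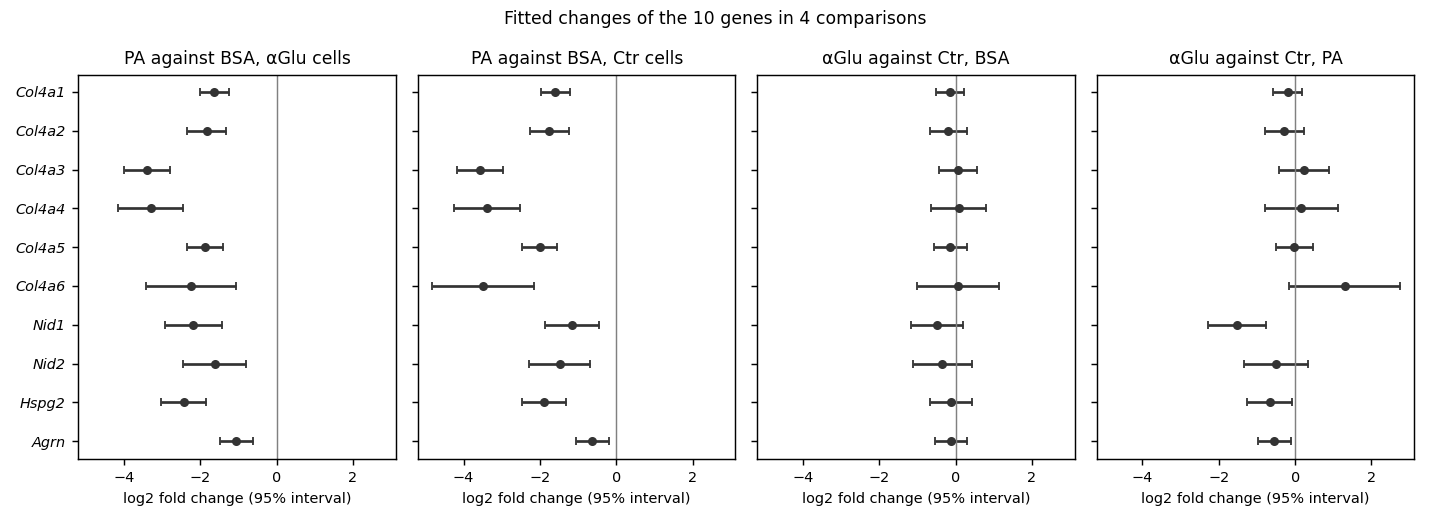
Fitted log2 fold changes (horizontal axis) of the 10 genes with 95% intervals in the edgeR model over 24 libraries, 1 panel for each of 4 comparisons. The intervals lie below 0 for all genes in both PA panels, with changes from -3.57 for Col4a3 to -0.63 for Agrn in Ctr cells. The Ctr PA panel is a description, since the genes were chosen with their fall there known. All intervals include 0 in the panel of αGlu against Ctr under BSA. Under PA those of Nid1 (-2.27 to -0.75), Hspg2 (-1.26 to -0.08) and Agrn (-0.98 to -0.11) lie below 0 and the others include it. No gene of that panel passed the adjusted threshold.

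The makeup of the chain messages differed between BSA and PA. Col4a3 and Col4a4 together made up a median of 4.84% of the summed TPM of the 6 chains in αGlu BSA (3.23% to 9.29%) and 1.76% in αGlu PA (1.25% to 2.52%). In Ctr cells the medians were 4.48% (2.23% to 6.75%) and 1.40% (0.702% to 2.14%). BSA and PA libraries did not overlap in this share in either oligonucleotide group. Col4a1 and Col4a2 held a median of 90.2% of the chain TPM under BSA and 93.05% under PA in αGlu cells. The summed TPM of the chains was 108 (71.4 to 155) in αGlu BSA and 26.7 (23.5 to 54.3) in αGlu PA at the median. The ratio of Agrn to Col4a1 in TPM had a median of 0.249 in αGlu BSA and 0.411 in αGlu PA, with overlapping ranges.

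Genes that fold, crosslink, accompany, bind or cut collagen IV were read in αGlu PA against αGlu BSA cells. Over all genes tested there, 14.2% were lower past the threshold and 2290 of 15916 were higher. All 6 genes of network crosslinking were lower in αGlu PA cells, with a median of -2.10. They include Pxdn, the peroxidase that forms sulfilimine bonds in collagen IV (-0.85 ± 0.15, adjusted p = 1.75e-04), and the lysyl oxidases Loxl2 (-0.68 ± 0.07), Lox (-4.02 ± 0.53) and Loxl1 (-2.68 ± 0.37). Of 21 genes of collagen folding, modification and export 6 fell, a share above that over all genes, and 2 rose. The median of this list was -0.04. Those that fell included the lysyl hydroxylase Plod2 (-1.497 ± 0.23), the prolyl hydroxylase subunit P4ha3 (-4.01 ± 0.61) and the collagen chaperone Serpinh1 (-1.33 ± 0.23), whereas P4hb, the protein disulfide isomerase that is the other prolyl hydroxylase subunit, rose (0.17 ± 0.05, adjusted p = 0.0138). Sec24d, a coat subunit of export vesicles (0.01 ± 0.04), and Mia3, the ER-exit receptor for collagens (-0.08 ± 0.05), did not pass it.

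Of the 25 other basement membrane genes 24 were tested, and 16 fell and 1 rose. Laminin Lamb1 (-2.20 ± 0.29), Sparc, a collagen-binding matricellular protein (-2.34 ± 0.36), and laminin Lama4 of vessel basement membranes (-1.82 ± 0.29) had the smallest p. Smoc1, a relative of Sparc, was the gene that rose (0.95 ± 0.15, adjusted p = 4.72e-05). Of 8 receptors 7 were tested and 6 fell, among them the collagen IV-binding integrin subunit Itga1 (-1.41 ± 0.21), its partner Itgb1 (-0.34 ± 0.09) and the collagen receptor kinase Ddr1 (-0.25 ± 0.06). Of the 6 proteases and inhibitors 4 fell, namely Timp3 (-2.20 ± 0.30), Mmp14 (-2.21 ± 0.32), Timp2 (-1.05 ± 0.19) and Timp1 (-3.27 ± 0.60), while the gelatinases Mmp2 (-1.76 ± 0.95) and Mmp9 (-1.39 ± 0.99) did not pass. In Ctr cells the numbers lower and higher were 6 and 0 of 6 for crosslinking, 6 and 2 of 21 for folding, 14 and 1 of 24 for other basement membrane proteins, 5 and 0 of 7 for receptors, and 5 and 0 of 6 for proteases and inhibitors. Over all genes 14.5% were lower in Ctr cells and 14.2% in αGlu cells.

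**Figure D3:**
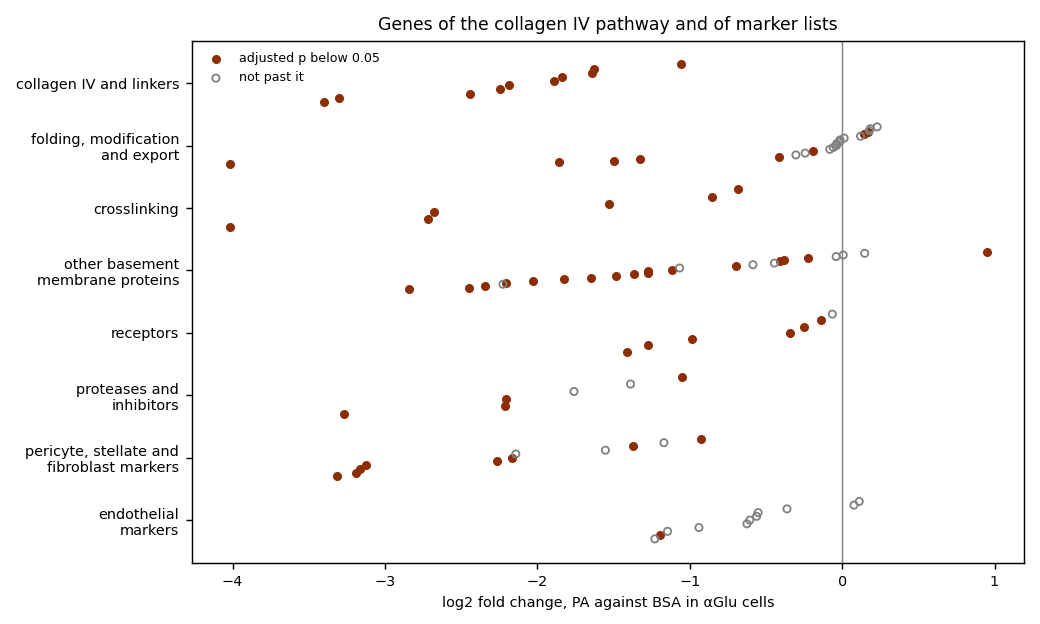
Log2 fold change of PA against BSA in αGlu cells (horizontal axis) for each tested gene of the 10 collagen IV and linker genes, of 5 pathway lists and of 2 marker lists (rows), with filled points past an edgeR adjusted p of 0.05 and open points not past it. All points of the crosslinking row and of the collagen IV row are filled and below 0, while most of the 21 folding genes lie near 0.

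Markers of the mesenchymal cells around vessels moved with these genes. Of the 12 pericyte, stellate and fibroblast markers 11 were tested and 8 fell in αGlu PA cells, with a median of -2.17, where 14.2% of all genes fell. Acta2, the smooth muscle actin (-3.19 ± 0.32), Cspg4, the pericyte proteoglycan (-2.17 ± 0.34), and Pdgfrb, the pericyte growth factor receptor (-2.27 ± 0.37), had the smallest p. The summed level of this list was 113 to 1121 CPM under αGlu BSA and 17.4 to 182 CPM under αGlu PA, and 158 to 596 CPM and 14.9 to 75.9 CPM in the Ctr libraries under BSA and PA. Pdgfrb, Acta2 and Cspg4 were above 0 in every library, and Lum was at 0 in 10 of 24 libraries.

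Of the 11 endothelial markers tested 9 had a negative change (median of the list -0.61), and 1 fell past the threshold, the TGF-beta co-receptor Eng (-1.19 ± 0.28). Over all genes tested 14.2% fell past the threshold, and 2290 of 15916 rose. For the endothelial markers: the summed level was 24.3 to 101 CPM in αGlu BSA and 17.3 to 77.03 CPM in αGlu PA. In batch 2 it was 56.3 to 57.8 CPM and 17.3 to 26.9 CPM, without overlap. In batch 1 it was 24.3 to 101 CPM and 30.6 to 77.03 CPM, with overlap. The defining endothelial markers Pecam1, Cdh5 and Kdr were above 0 in every library, and Cldn5 was at 0 in 7. None of the 9 Schwann and glia markers and 1 of the 9 macrophage markers, Csf1r, passed in this comparison. Acinar markers were lower for 5 of 7 and ductal markers for 2 of 6, and 2 beta-cell markers fell and 3 rose of 10. Of the 8 alpha, delta and PP markers 1 fell, Sst. Whether these cell types take part in the fall of the collagen IV genes was not tested.

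The αGlu oligonucleotide was compared with the control to ask whether blocking the tRNA fragment changes these genes. Under BSA none of the 10 genes was called, as was the case for 0% of all genes in edgeR, with 461 genes at an unadjusted p below 0.05 and 8 genes past the adjusted threshold in DESeq2. Log2 fold changes ran from -0.48 for Nid1 to 0.08 for Col4a4. For the abundant chains the 95% intervals were narrow, with -0.52 to 0.21 for Col4a1 and -0.67 to 0.29 for Col4a2. For Col4a6 the interval was wide, from -1.01 to 1.13. All 9 Schwann and glia markers were lower in αGlu than in Ctr cells under BSA as well, with a median of -2.52, and none passed the adjusted threshold.

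Under PA, again none of the 10 genes was called and 0% of all genes were, with 538 genes at an unadjusted p below 0.05 and 30 genes past the adjusted threshold in DESeq2. Nid1 was the gene nearest to a call. It was read at 8.01, 18.9 and 36.1 CPM (lowest, median, highest) in Ctr PA and at 4.12, 5.34 and 12.97 CPM in αGlu PA, a difference of -1.51 ± 0.37 (unadjusted p = 3.87e-04, edgeR adjusted p = 0.308). The groups overlapped. By DESeq2 its adjusted p was 0.0428, and by a fold above 2 with an unadjusted p below 0.05, the threshold of the study, it was the 1 gene of the 10 past it, as were 0.942% of all genes.

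The Nid1 values of Ctr PA and αGlu PA stood apart in batch 2 and overlapped in batch 1. In batch 2 the Ctr PA libraries were at 19.8, 32.9 and 36.1 CPM and the αGlu PA libraries at 4.12, 4.23 and 6.05 CPM, a difference of -2.63 ± 0.43, whereas in batch 1 they were at 8.01, 10.8 and 18.1 CPM against 4.63, 11.7 and 12.97 CPM, a difference of -0.34 ± 0.41. In batch 2 alone Nid1 passed the adjusted threshold (adjusted p = 0.0243), and in batch 1 alone it did not (adjusted p = 1). The change between batches was -2.29 ± 0.59 (unadjusted p = 8.39e-04, adjusted p = 0.99989 over all genes), so it did not hold after adjustment.

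Hspg2 had a like pattern, with 0.09 ± 0.35 in batch 1 and -1.37 ± 0.36 in batch 2 (unadjusted p of the change between batches 0.00823, adjusted p = 0.99989). The pattern was not particular to these genes. In batches 1 and 2 Nid2 differed by -0.003 ± 0.56 and -1.23 ± 0.61, Agrn by -0.16 ± 0.29 and -0.98 ± 0.30, and Col4a2 by 0.20 ± 0.33 and -0.79 ± 0.33. Col4a5 (-0.02 and -0.03) and Col4a6 (1.26 and 1.39) were alike in both batches, and Col4a4 went the other way (-0.39 and 0.68). Over both batches Hspg2 differed by -0.67 ± 0.28 and Agrn by -0.55 ± 0.21 (unadjusted p = 0.0269 and 0.0164, both adjusted p = 0.993). Col4a1 differed by 0.20 ± 0.24 within batch 1 and by -0.56 ± 0.25 within batch 2. Col4a3, Col4a4 and Col4a5 differed by 0.23, 0.16 and -0.02 over both batches, and Col4a6 by 1.29 with an interval from -0.16 to 2.75.

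Schwann and glia markers moved with the same libraries. Their summed level in batch 2 was 51.4 to 92.2 CPM in Ctr PA and 20.3 to 22.6 CPM in αGlu PA, and in batch 1 it was 44.1 to 75.7 CPM and 43.7 to 56.2 CPM. Over both batches 8 of the 9 markers were lower in αGlu PA than in Ctr PA, with a median of -2.90, though none passed the adjusted threshold, and Gfap and Foxd3 were each at 0 in 5 of 24 libraries. The pericyte, stellate and fibroblast sum in batch 2 was 40.3 to 71.8 CPM in Ctr PA and 24.7 to 38.003 CPM in αGlu PA. In batch 1 it was not lower with αGlu, at 14.9 to 75.9 CPM (mean 45.9) in Ctr PA and 17.4 to 182 CPM (mean 92.7) in αGlu PA, with overlap. The part of these cells in the Nid1 and Hspg2 values was not tested.

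**Figure D4:**
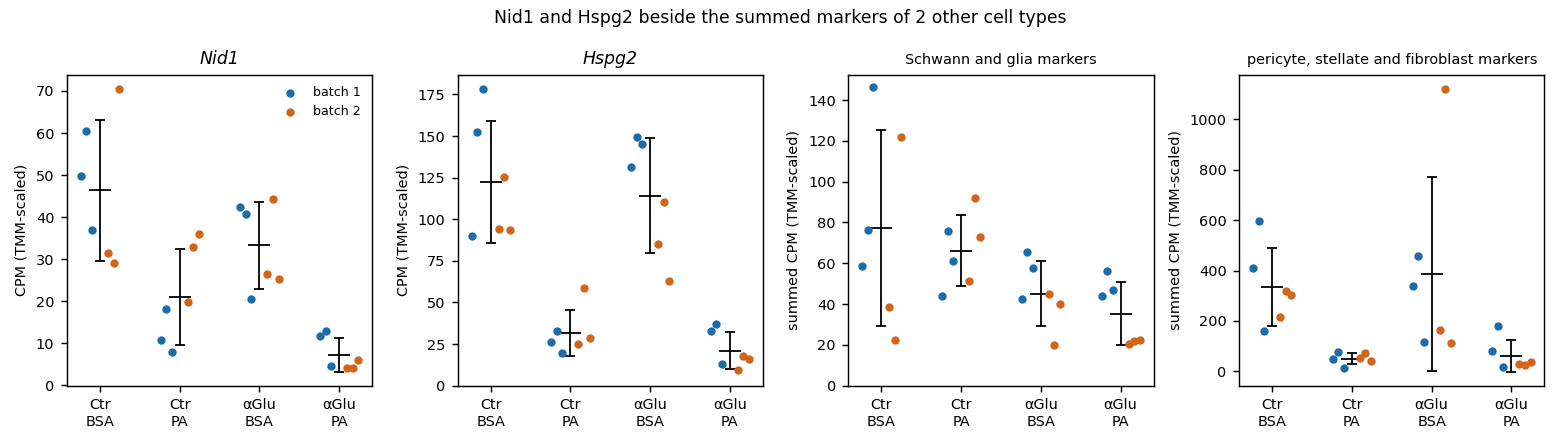
CPM of Nid1 and Hspg2 and the summed CPM of 9 Schwann and glia and 12 pericyte, stellate and fibroblast markers (vertical axes, TMM-scaled) by group, with blue points for batch 1, orange points for batch 2 and bars for mean ± SD of 6 libraries. In batch 2 the 3 αGlu PA libraries lie below the 3 Ctr PA libraries for Nid1 (at most 6.05 against at least 19.8 CPM), Hspg2 and both marker sums. In batch 1 the αGlu PA and Ctr PA libraries overlap in every panel.

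The response to PA was not called different between αGlu and Ctr cells for any of the 10 genes, nor for any gene tested (0% of all genes in edgeR, 332 at an unadjusted p below 0.05, and 0 in DESeq2). Nid1 had the smallest p, with a PA response lower by 1.03 ± 0.49 on the log2 scale in αGlu cells (a value of -1.03, 95% interval -2.05 to -0.02, unadjusted p = 0.0468, adjusted p = 0.999), and it alone passed the threshold of the study, as did 0.653% of all genes. In batch 1 alone this value was 0.17. For Col4a3 the difference of responses was 0.17 with an interval of -0.66 to 0.997, and for Col4a6 it was 1.23 with an interval of -0.55 to 3.02.

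Between batches, Col4a5 and Agrn were lower in batch 2, where 25.4% of all genes were lower past the adjusted threshold. Col4a5 was lower by -1.005 ± 0.16 (adjusted p = 8.81e-06) and Agrn by -1.17 ± 0.15 (adjusted p = 4.76e-07). The other genes ran from -0.98 for Col4a6 (adjusted p = 0.0504) to 0.02 for Nid1. Without the Ctr PA library S11, Col4a2, Col4a6 and Hspg2 were called as well, 5 genes in all, and without S19, Col4a2 and Hspg2 were, 4 in all. Col4a6 was also called by DESeq2 (adjusted p = 0.0262) and with S1, S12, S15, S17, S18 or S20 left out. Nid2 was called with S10 left out. None of the 10 genes was higher past the threshold, where 26.1% of all genes were. In the same comparison 7 of 7 acinar and 6 of 11 endothelial markers were lower past the threshold, with medians of -4.37 and -0.73, and 10 of 10 beta-cell markers were higher, with a median of 0.54. Their part in the batch values was not tested.

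Across the 24 libraries the genes varied together, and these points share the treatment, the batch and the library scaling. Pearson r of log2 CPM over the 45 pairs of genes ran from 0.56 to 0.99, with a median of 0.82. After removal of the group and batch means it ran from -0.11 to 0.96, with a median of 0.41. Col4a1 and Col4a2 remained together (r = 0.96 after removal), the pair with overlapping starts. Col4a3 and Col4a4 reached 0.50, less than Col4a3 with Agrn (0.74) and Col4a5 (0.71), and Col4a5 and Col4a6 reached 0.44. The low counts of Col4a4 and Col4a6 limit these values. Nid1 went with Hspg2 (0.64) and Col4a1 (0.58) and not with Col4a4 (-0.04) or Col4a5 (-0.03).

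**Figure D5:**
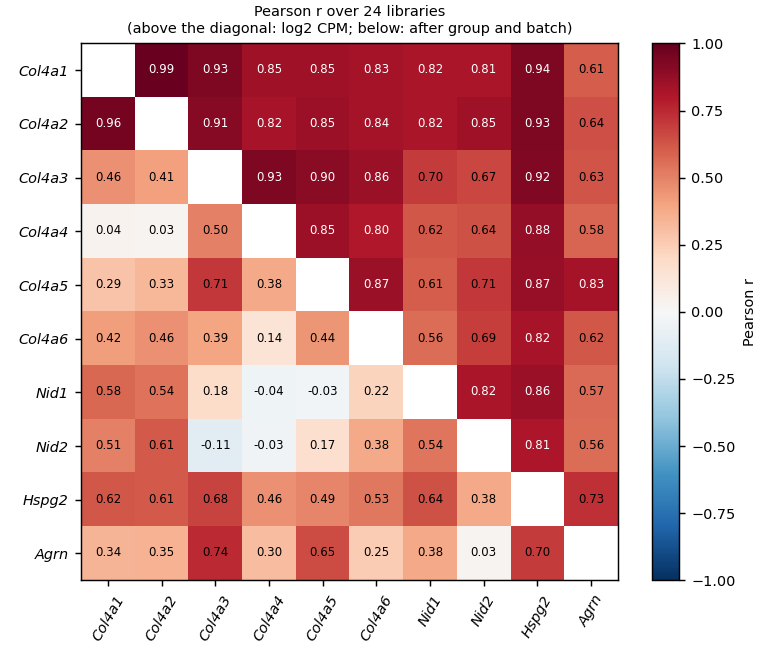
Pearson r between the 10 genes over 24 libraries, as a colour scale from -1 to 1, with log2 CPM above the diagonal and residuals after group and batch below it. Col4a1 with Col4a2 is the highest on both sides (0.99 and 0.96), while Nid1 and Nid2 with Col4a4 lie near 0 below the diagonal.

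The genes most like each one over the 24 libraries are named by r of log2 CPM. Apart from Col4a2, the genes nearest to Col4a1 were Myl9 (0.97), Acta2 (0.97), Igfbp7 (0.96) and Adgre5 (0.96), and Ehd2 joined them for Col4a2 (0.96). Those nearest to Col4a3 were Aif1l (0.98), Mcam (0.97), Foxj1 (0.97), Glipr1 (0.97) and Tgm2 (0.97), and to Col4a4 Cnn1 (0.95), Col4a3 (0.93), Plau (0.93), F3 (0.93) and Tgm2 (0.93). For Col4a5 they were Ccn1 (0.98), Itga3 (0.97), Pdgfb (0.97), Adam8 (0.97) and Fstl3 (0.97). Nid1 was most like Col5a2 (0.95), Angptl2 (0.94), Axl (0.94), Kirrel (0.94) and Lama2 (0.93), and Nid2 like Actg2 (0.89), Fscn1 (0.89), Hgf (0.87), Eng (0.87) and Lama4 (0.87). Hspg2 was nearest to Mcam (0.97), Ccn2 (0.96), Fn1 (0.96), Loxl1 (0.96) and Msn (0.96), and Agrn to Ahnak (0.98), Wwtr1 (0.97), Cd9 (0.97), Acot7 (0.96) and Inf2 (0.96). Col4a6 was too rare for this reading.

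After removal of group and batch means the nearest genes were Adgre5 (0.83), Stat3 (0.83), Myl9 (0.83) and Igfbp7 (0.81) for Col4a1 beside Col4a2, and Jcad (0.85), Stat3 (0.83), Tspan4 (0.82) and Smad6 (0.82) for Col4a2 beside Col4a1. They were Mcam (0.88), Aif1l (0.88), Ccn2 (0.86), Krt17 (0.83) and Samd4 (0.82) for Col4a3, and Pxmp2 (0.70), Plau (0.69), Cnn1 (0.69), Ttpa (0.69) and Dync1li2 (0.67) for Col4a4. For Col4a5 they were Tinagl1 (0.91), Flna (0.91), Fstl3 (0.90), Lrrk1 (0.89) and Wwc1 (0.88). The collagen-binding matrix gene Postn (0.86) led for Nid1, ahead of Il1rl2 (0.85), Col5a2 (0.84), C4b (0.84) and Axl (0.83), and Gimap4 (0.88), Rgs4 (0.88), Shisa5 (0.86), Ifi27l2a (0.86) and Steap4 (0.86) for Nid2. Fn1 (0.90), Pmepa1 (0.89), Tnc (0.86), Mcam (0.85) and Lrrc8c (0.85) stood nearest to Hspg2, and Ahnak (0.89), Ahr (0.87), Sphk1 (0.87), Nes (0.87) and Wwtr1 (0.87) to Agrn.

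Against the marker sums, the residuals of Col4a1 and Col4a2 went with the pericyte, stellate and fibroblast list (r = 0.69 and 0.72) and the endothelial list (0.53 and 0.65). Those of Nid2 went with the endothelial list (0.82) and the pericyte, stellate and fibroblast list (0.65). Nid1 went with the pericyte, stellate and fibroblast list (0.74) and, less, with the Schwann and glia list (0.48) and the endothelial list (0.41). Col4a3 and Col4a4 went with neither the pericyte, stellate and fibroblast list (0.24 and 0.11) nor the endothelial list (-0.25 and -0.41). Col4a3 went with the acinar (0.66) and ductal (0.65) lists and against the beta-cell list (-0.57) and the alpha, delta and PP list (-0.65), and Col4a5 likewise (0.57, 0.74, -0.53 and -0.53). For Col4a4 these values were 0.40, 0.30, -0.51 and -0.42. Hspg2 went with the pericyte, stellate and fibroblast list (0.57) and against the beta-cell list (-0.64). Agrn went with the acinar list (0.67) and the Schwann and glia list (0.62) and against the beta-cell list (-0.72). The sums follow their most abundant genes, so these values need not hold for a whole cell type. Such genes were Krt7 in the ductal list (median 242 CPM) and Gcg in the alpha, delta and PP list (14954.5 CPM). In the beta-cell list they were Ins2 (55175 CPM), Ins1 (27601 CPM) and Iapp (21454 CPM).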

How the data were processed

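Dispersed mouse islet cells were sequenced as stranded mRNA libraries in 24 samples. The authors counted reads on exons with the QIAGEN RNA-seq Analysis Portal on GRCm38, per the submitters' processing notes; its aligner settings and annotation are not stated. The deposited table holds counts, RPKM, TPM and CPM for each library. Empty cells were read as 0, 1 line without a gene (0 counts) was left out, and the 24 deposited CPM columns were not used. Counts were tested with edgeR 4.0.16 in R 4.3.3 (TMM, filterByExpr, quasi-likelihood, group and batch terms, all 24 libraries), two-sided, with Benjamini-Hochberg adjustment over 15916 genes and calls at an adjusted p below 0.05. Printed CPM are the deposited counts over TMM-scaled library sizes. Levels per length are the deposited TPM, with RPKM as an alternative. Correlations used log2 CPM with a prior count of 2. Counts carry no molecular identifiers.

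The 10 genes and all lists were chosen with earlier results of these data known. The text names all 10 genes, the 3 genes of smallest p of each list in αGlu cells and the 5 most alike genes of each gene above a mean of 1 CPM; other list genes were picked after their values were seen. By the study's methods replicates are preparations from different organisms, and the groups of 1 replicate share an animal, but the labels do not tie libraries to animals. Alternatives were DESeq2 1.42.0, upper-quartile scaling, no filter, 10 counts in 12 libraries, no batch term, the compared groups alone, each batch alone, the study's threshold and leaving out each library. The test of a difference between batches and a block for each 4 consecutive library numbers were added after values were seen. The procedure was tested on simulated data.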

Additional observations from a re-analysis of the deposited data

Results flagged for a closer look

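Among 40 sets of values (10 genes in 4 groups), 3 held a library far from the other 5 by Dixon's test, where chance gives about 1 in 20. Col4a3 was at 24.4 CPM in the Ctr BSA library S9, against 8.44 to 13.9 CPM in the others of that group. In the αGlu BSA library S22 it was at 6.30 CPM, against 14.2 to 18.4 CPM. Hspg2 was at 58.4 CPM in the Ctr PA library S19, against 19.4 to 32.7 CPM. Col4a3 in αGlu cells fell by 3.32 to 3.54 on the log2 scale over all alternatives, with its call kept in each.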

How the results depend on the processing

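Of the 10 genes, 10 were called lower under PA in αGlu cells with each library left out in turn, and 7 to 10 under the other alternatives. In Ctr cells these numbers were 9 to 10 and 8 to 10. Agrn lost its Ctr call in 10 of 34 alternatives. No direction changed in either PA comparison. For αGlu against Ctr in PA the number called was 0 by edgeR over both batches and 1 (Nid1) by DESeq2, in batch 2 alone and by the study's threshold. For the difference of the PA responses it was 0 and, by the study's threshold, 1 (Nid1). The cause of these changes was not tested. Between batches it was 2, with 3 by DESeq2 and 2 to 5 when a library was left out. Over all genes, the PA calls were 4543 in αGlu and 4772 in Ctr cells, and fell to 1644 and 2033 in batch 1 alone, 1902 and 1833 in batch 2 alone, 2271 and 2312 without the batch term, and 886 and 941 by the study's threshold. For αGlu against Ctr in PA, 0 genes became 30 by DESeq2, 6 in batch 2 alone, 6 with the compared groups alone, 3 without the filter and 150 by the study's threshold. In BSA, 0 became 8 by DESeq2 and 125 by the study's threshold, for the responses 0 became 104 by that threshold, and between batches 8197 became 1015 by it. Leaving out a library gave 0 to 9 genes in BSA and 0 to 3 in PA. The order of levels was the same in RPKM as in TPM for 10 of 10 genes in each group. Both units differ only by a factor for each library, so the order within a library could not change. This is therefore no check of the levels. Reads of Col4a6, with 0 to 8 counts per Ctr PA library, limit its values. The labels do not pair libraries across groups. A replicate block for each run of 4 consecutive library numbers, which holds 1 library of each group, was tried after the data were seen, as a pairing the labels do not state. After removal of group and batch means, 23 of 24 libraries correlated best with their own block, among the blocks of their own batch only. Mean r with the own block was 0.09 to 0.27 in batch 1 and -0.06 to 0.07 in batch 2. Pairs within a block had r of -0.11 to 0.30. With this block no call of the 10 genes changed (10 lower in both PA comparisons, 0 in the others), and the calls over all genes were 5420 in αGlu and 5617 in Ctr cells, 9 between the oligonucleotides under BSA, 0 between them under PA and 0 for the responses.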
